A study of Mus musculus with 50 samples.

Results

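The genes described here are 9 transcription factors known for their roles in the intestinal epithelium: Cdx1, Cdx2, Hnf4a, Gata4, Gata6, Sox9, Klf4, Klf5 and Elf3. They were taken by symbol, as every probe set of the array whose only gene symbol in the platform annotation is one of these names. This gave 21 probe sets, of 34945 with exactly 1 symbol and 18193 gene symbols in all. No probe set named a member together with another gene. Of the 21, 11 probe sets of 7 genes were bright enough to be tested, which meant exceeding the table median (6.44 on the log2 scale) in 10 or more of the 50 arrays. Neither Cdx1 nor Cdx2 had such a probe set. Where a gene had several probe sets, the one with the highest mean over the 50 arrays is called its lead probe set.

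The arrays measured polysomal RNA, that is mRNA carrying several ribosomes, from a mouse colon epithelial line, with 10 arrays in each of 5 groups. The parental group, YAMC (young adult mouse colon), comes from the Immorto-mouse (H-2Kb/tsA58 transgenic), whose temperature-sensitive large T antigen supports growth at 33 °C with interferon gamma and is inactive at 39 °C without it. Low-passage YAMC cells were infected with retroviruses to give 4 polyclonal populations: bleo/Neo with both empty vectors, mp53 with p53175H and the Neo vector, Ras with the Bleo vector and RasV12, and mp53/Ras with p53175H and RasV12. All 5 groups carry the large T transgene and were held for 48 h at 39 °C without interferon gamma and then for 24 h in 0% serum, with 5 µg of RNA going into each labelling. Each population was made once. The labels do not say that replicates were separate cultures, so the p-values measure only the spread between these arrays. Because the RNA came from whole populations, fewer cells of a kind and less RNA per cell cannot be told apart. As only polysomal RNA was measured, a change in the amount of an mRNA and in its share on polysomes cannot be told apart either.

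CDX1 and CDX2 are caudal-type homeodomain proteins that set intestinal identity, and HNF4A, GATA4 and GATA6 are endoderm factors that act with them on enterocyte genes. GATA4 is normally a factor of the proximal small intestine, whereas GATA6 is also active in the colon. SOX9 is a factor of the crypt base and of Paneth cells, KLF5 is linked to proliferating crypt cells, and KLF4 and ELF3 are linked to goblet cells and to differentiation towards the gut surface.

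In these cells the 9 genes differed in where they lay against background. Klf4, Klf5, Gata4 and Gata6 lay above background in every group, Cdx1 and Cdx2 lay at background in every group, and Hnf4a, Elf3 and Sox9 lay close to the border. Sox9 was higher in Ras and mp53/Ras than in bleo/Neo, by 0.92 ± 0.12 and 1.03 ± 0.12 on the log2 scale (standard error, 10 arrays a group). Gata4 was highest in bleo/Neo and lower in all 3 oncogene populations. Gata6 was highest in mp53, and neither probe set of Klf4 passed the test in any of 11 comparisons over all 50 arrays.

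Promoters are shown for Klf4, which lay above background on every array, and for Cdx2, a defining gut factor that lay below it on every array. Each runs over the 250 bases before the annotated start, from RefSeq on GRCm38.p6, at chr4:55532476-55532725 for Klf4 and chr5:147307250-147307499 for Cdx2, both read on the minus strand. Capitals mark matches to 3 short motifs searched on both strands: CACCC (bound by KLF proteins), TTTAT (by CDX proteins) and GATAA (by GATA proteins).
Klf4: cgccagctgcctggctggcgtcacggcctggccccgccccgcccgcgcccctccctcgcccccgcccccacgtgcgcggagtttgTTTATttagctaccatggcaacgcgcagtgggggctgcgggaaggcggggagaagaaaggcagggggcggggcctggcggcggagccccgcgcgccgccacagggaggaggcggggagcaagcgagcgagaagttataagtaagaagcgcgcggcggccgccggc
Cdx2: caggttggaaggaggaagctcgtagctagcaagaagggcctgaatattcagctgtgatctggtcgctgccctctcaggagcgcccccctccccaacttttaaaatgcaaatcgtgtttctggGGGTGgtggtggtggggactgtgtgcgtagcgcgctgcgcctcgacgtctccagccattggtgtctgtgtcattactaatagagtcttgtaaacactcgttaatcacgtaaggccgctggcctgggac
The Klf4 stretch holds 32 CpG dinucleotides, more than 95.4% of all promoters of that length, and 1 match to TTTAT. The Cdx2 stretch holds 13 CpG and 1 match to CACCC, which stands on the opposite strand and reads GGGTG here. Neither holds GATAA. Of 32851 promoters, 52% hold CACCC, 37.3% TTTAT and 22.6% GATAA, so 1 match is common, and a match is a run of letters, not a binding site. The median was 16 CpG for genes with a mean signal above background and 5 for genes at background. Of the 9 members, 4 had an entry in the promoter table (Cdx2, Hnf4a, Klf4 and Elf3).

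Background was set from 86 probe sets of odorant, vomeronasal, bitter taste and visual receptors, genes of sensory cells. Their median was 4.95, and their 95th percentile, 6.89, was taken as the background level, which 5 of the 86 exceeded. A group mean below 6.89 is called at background. It does not show that the gene is silent, since probe sets differ in how well they bind. Of the 21 member probe sets, 11 lay at background in all 5 groups, 6 lay above it in all 5 and 4 changed side between groups. By lead probe set, 5 to 7 of the 9 genes were above background in a given group, beside 58.7% to 58.9% of all 18193 genes, and 4 were above it in all groups.

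**Figure D1:**
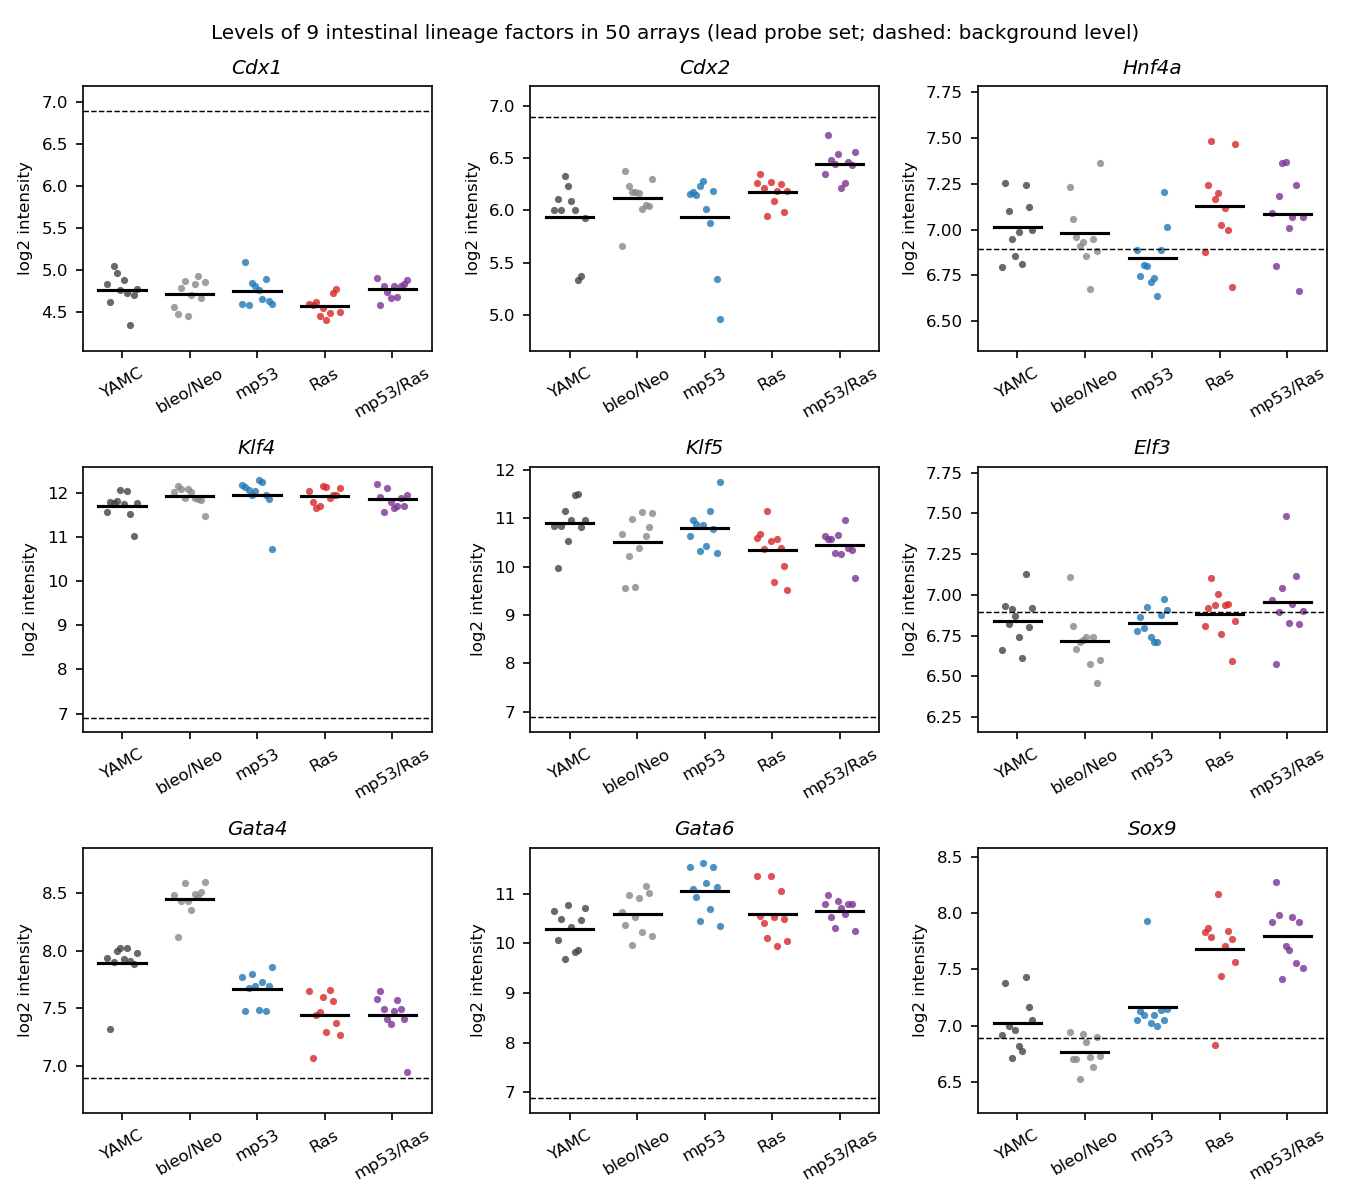
Log2 intensity of the lead probe set of each of the 9 factors (vertical axis) in the 10 arrays of each group (points), with the group mean as a bar and the background level of 6.89 as a dashed line. All Cdx1 and Cdx2 points lie under the line, all Klf4, Klf5 and Gata6 points lie far above it, and the Gata4 points of bleo/Neo lie above those of every other group.

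Some arrays and groups stand apart. By its whole profile, 46 of 50 arrays lay nearest their own group mean. The array labelled mp53 10 lay nearest Ras, the array labelled Ras 10 nearest mp53, YAMC 2 nearest mp53, and mp53 8 nearest YAMC, and where leaving these arrays out ended or gave a call, the value without them is printed with the gene or among the limits at the end. The vector population bleo/Neo also differed from its parent, although neither carries p53175H or RasV12. The Y-linked gene Eif2s3y had a mean of 3.73 in bleo/Neo and 7.94 to 8.96 in the other groups. Of 11 tested fibroblast and smooth muscle markers, 7 were lower and 1 was higher in bleo/Neo than in YAMC, with Col1a2, a chain of type I collagen, lower by 4.62 (−4.62 ± 0.14, adjusted p = 1.86e-31). Over all tested genes 36.5% were called in that comparison. Other marker lists moved too: of 10 tested general epithelial markers 5 were higher and 1 was lower in bleo/Neo, with the keratin Krt7 higher by 2.42, and of 9 tested squamous and neural markers 6 were higher and 1 was lower.

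As a check of the cell type, the simple-epithelial keratins Krt8 and Krt18 had means of 11.75 and 10.54 in YAMC, and the epithelial adhesion gene Epcam 8.40, all above background. Cdh1, the gene of E-cadherin, lay at background in every group (3.95 to 4.31). So did 8 of the 17 general epithelial markers in all. Defining genes of the absorptive gut lay at background too: Cdh17 (4.35 to 4.57), Vil1 (5.24 to 5.58), Fabp1 (5.51 to 5.84), Fabp2 (4.35 to 4.72) and Lgals4 (5.58 to 6.12). These genes were picked after their values were seen. Of 35 intestinal and colon differentiation genes on the array, 26 were at background in all groups. From the same list 13 were bright enough to be tested, among them Krt20 and Tff3. Fibroblast and smooth muscle markers were at background in all groups for only 3 of 14, with Col1a1 at 13.29 and Acta2 at 13.97 in YAMC.

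**Figure D2:**
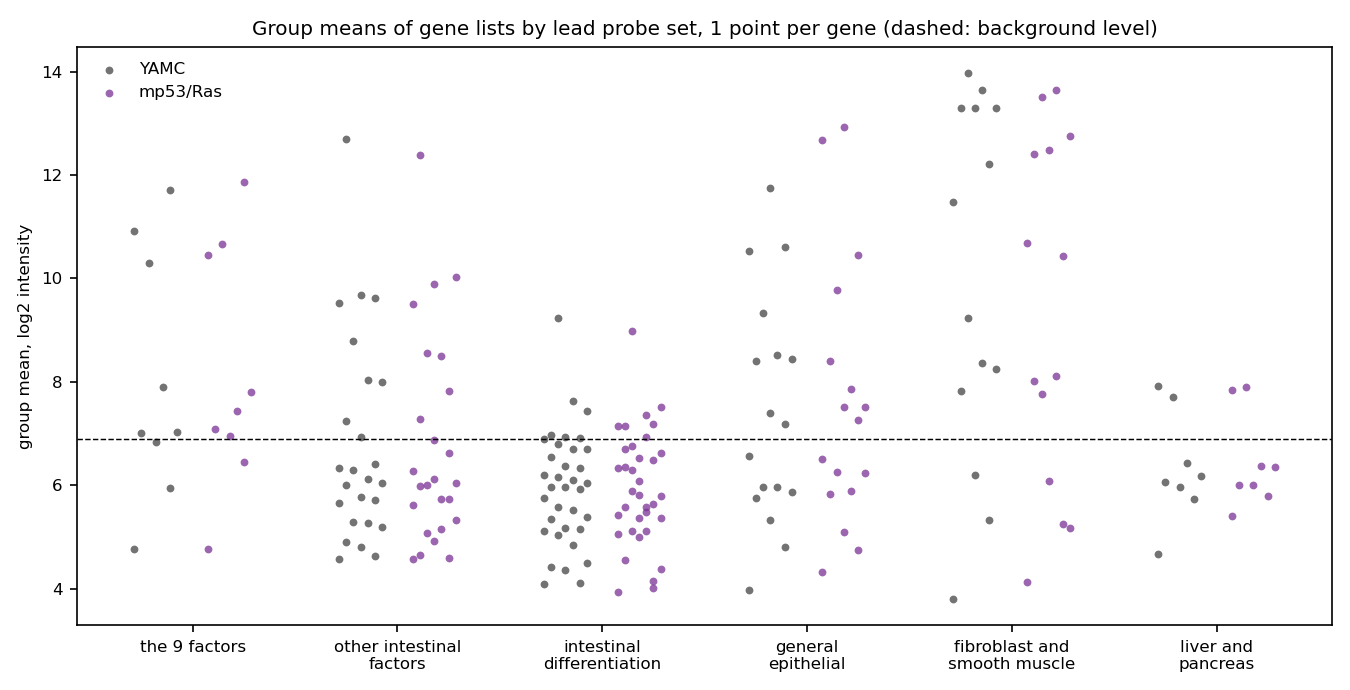
Mean log2 intensity of each gene (1 point per gene, lead probe set) in YAMC and mp53/Ras, for the 9 factors and 5 gene lists, with the background level of 6.89 dashed. Most intestinal differentiation genes lie under the line in both populations, whereas most fibroblast and smooth muscle markers lie above it.

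Each difference below comes from a limma fit over all 50 arrays, with p-values adjusted by the Benjamini-Hochberg method over the 21589 tested probe sets, and a gene is called at an adjusted p under 0.05. With 7 tested members a share is coarse, and no count below sets the members apart from the share called over all probe sets. Against bleo/Neo, 3 of the 7 tested lead probe sets were called in mp53/Ras (Elf3, Gata4 and Sox9), where 52.5% of all tested probe sets were called. For mp53 it was 3 (Gata4, Gata6 and Sox9) beside 33.2%, and for Ras 2 (Gata4 and Sox9) beside 39.7%. These 3 comparisons share the bleo/Neo arrays, so their agreement is not independent.

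Against the parental YAMC arrays, which another 4 comparisons share, Gata4 alone was called in bleo/Neo (1 of 7, beside 34.7% of all). In mp53, Gata4 and Gata6 were called (2 of 7, beside 21.5%). Gata4, Klf5 and Sox9 were called both in Ras (3 of 7, beside 40.3%) and in mp53/Ras (3 of 7, beside 55.4%). Between the oncogene populations, mp53/Ras against mp53 called Gata4, Hnf4a and Sox9 (3 of 7, beside 44.5%), and Ras against mp53 called those and Gata6 (4 of 7, beside 30.4%). In Ras against mp53 another tested Hnf4a probe set, at background in both groups, was called in the opposite direction. No lead probe set was called between mp53/Ras and Ras, where 20.2% of all tested probe sets were called, and the lowest unadjusted p among the 7 leads was 0.336. The median of the 7 lead differences was 0.06 in mp53/Ras against bleo/Neo, beside 0.02 over all tested probe sets.

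**Figure D3:**
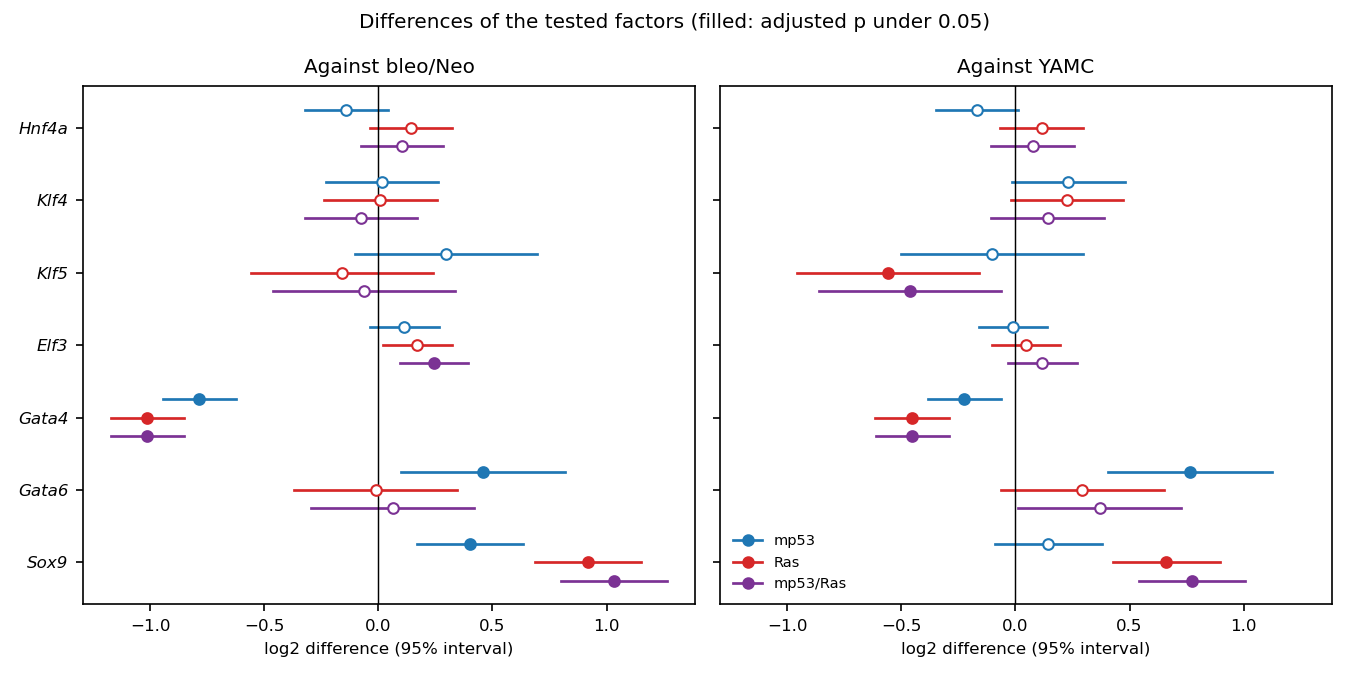
Log2 difference (horizontal axis, point with 95% interval) of mp53, Ras and mp53/Ras against bleo/Neo (left) and against YAMC (right) for the lead probe sets of the 7 tested factors; filled points had an adjusted p under 0.05. Gata4 is lower and Sox9 higher in Ras and mp53/Ras against both controls, and Gata6 is higher in mp53 against both.

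The caudal factors gave no signal above background. Cdx1, measured by a single probe set, had group means between 4.56 in Ras and 4.77 in mp53/Ras, and its 50 values lay between 4.34 and 5.09. Cdx2 had a pair of probe sets. On the lead, 1422075_at, values ran from 5.33 to 6.33 in YAMC (median 6.0), from 5.66 to 6.38 in bleo/Neo (6.17), from 4.96 to 6.28 in mp53 (6.15), from 5.94 to 6.35 in Ras (6.20) and from 6.22 to 6.72 in mp53/Ras (6.46). All of these lie under 6.89, with mp53/Ras at the top and overlapping the other groups. In a fit without the filter, mp53/Ras stood above YAMC by 0.51 ± 0.12 (adjusted p = 0.000398) and above bleo/Neo by 0.33 ± 0.12 (adjusted p = 0.0211). The second probe set, 1422074_at, did not follow: its means were 6.02 in mp53/Ras and 6.04 in YAMC, a difference of −0.01 (95% interval −0.17 to 0.15). With every value at background, no level or change of Cdx2 can be read from the first probe set alone.

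Hnf4a, a nuclear receptor that drives enterocyte genes, had 4 probe sets, and they disagreed. On the lead, 1427001_s_at, medians were 6.99 in YAMC (6.80 to 7.26), 6.94 in bleo/Neo (6.68 to 7.37), 6.80 in mp53 (6.64 to 7.21), 7.14 in Ras (6.68 to 7.48) and 7.08 in mp53/Ras (6.67 to 7.37). The groups overlapped throughout, and the mp53 mean of 6.84 was the only one at background. Against mp53, the lead rose in mp53/Ras by 0.24 ± 0.09 (adjusted p = 0.0244) and in Ras by 0.28 ± 0.09 (adjusted p = 0.0131), and it was called in no other comparison.

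The second tested Hnf4a probe set, 1450447_at, did not follow the lead. In Ras against mp53 it was called lower (limma, adjusted p = 0.0194), whereas the lead was called higher. In mp53/Ras against Ras it was called higher (limma, adjusted p = 0.000225), and the lead was not called. This second probe set exceeded the table median on 27 of the 50 arrays, so it entered the test through the groups where it was higher. Its medians were 6.28 in YAMC (6.16 to 6.47), 6.27 in bleo/Neo (6.15 to 6.50), 6.86 in mp53 (5.99 to 7.03), 6.48 in Ras (6.30 to 6.61) and 6.90 in mp53/Ras (6.68 to 7.14). All 10 mp53/Ras arrays lay above all YAMC, bleo/Neo and Ras arrays. Within mp53, 8 arrays lay between 6.77 and 7.03, and mp53 5 (6.06) and mp53 8 (5.99) lay below. The group means lay at background in YAMC, bleo/Neo, mp53 and Ras, and in mp53/Ras 5 of the 10 arrays lay below it, so no size of change is read from this probe set. Across the 50 arrays the 2 tested Hnf4a probe sets had a Pearson r of −0.07, and the other 2 lay at background with means of 4.22 and 3.79.

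Groups whose arrays did not overlap were few. In mp53/Ras against bleo/Neo, 3 of the 11 tested member probe sets had no overlap (Hnf4a 1450447_at and the leads of Gata4 and Sox9), beside 15.9% of all tested. In mp53 against bleo/Neo there were 2 (Gata4 and Sox9, beside 3.96%), and in Ras against bleo/Neo 1 (Gata4, beside 6.24%). Against YAMC, Gata4 did not overlap in bleo/Neo (1 of 11, beside 4.15%) and Hnf4a 1450447_at did not in mp53/Ras (1 of 11, beside 14.7%). Hnf4a 1450447_at was also the 1 of 11 between mp53/Ras and Ras, beside 3.8%, and in all 3 of these comparisons it lay at background on one side. This probe set passed the filter through the groups where it was higher, so its lack of overlap is not read as a result. None of the 11 lacked overlap in mp53 against YAMC (beside 0.278% of all), in Ras against YAMC (3.83%), in mp53/Ras against mp53 (10.1%) or in Ras against mp53 (1.21%).

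Gata4, an endoderm and heart zinc-finger factor, was called in 10 of 11 comparisons, more than any other tested member probe set. The 11 comparisons share the same 5 groups, so these calls are not independent. Single comparisons called 20.2% to 55.4% of all tested probe sets. On the lead, 1418863_at, YAMC values ran from 7.32 to 8.03 (median 7.93) and bleo/Neo values from 8.13 to 8.60 (8.48). The mp53 arrays ran from 7.48 to 7.86 (7.69), Ras from 7.07 to 7.66 (7.46) and mp53/Ras from 6.95 to 7.65 (7.48). The 10 bleo/Neo arrays lay above all 40 others, and the YAMC arrays lay above the Ras and mp53/Ras arrays except for YAMC 4.

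Against bleo/Neo, Gata4 fell by 0.78 ± 0.08 in mp53 (adjusted p = 1.78e-11), by 1.01 ± 0.08 in Ras (adjusted p = 2.99e-15) and by 1.01 ± 0.08 in mp53/Ras (adjusted p = 1.43e-15). Against YAMC the falls were smaller, by 0.23 ± 0.08 in mp53 (adjusted p = 0.0355), by 0.45 ± 0.08 in Ras (adjusted p = 8.45e-06) and by 0.45 ± 0.08 in mp53/Ras (adjusted p = 4.21e-06). The difference between the controls themselves, bleo/Neo minus YAMC, was 0.56 ± 0.08 (adjusted p = 1.47e-07). The size of the Gata4 fall therefore depended on the control chosen, and its direction did not. The mp53 value against YAMC was no longer called when only those groups were fitted (adjusted p = 0.064).

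The non-additive term, mp53/Ras minus mp53 minus Ras plus bleo/Neo, asks whether both oncogenes together differ from the sum of each alone. For Gata4 it was 0.78 ± 0.11 (adjusted p = 3.68e-07), the only lead called of 7, beside 22.0% of all tested probe sets. The mp53/Ras minus Ras difference was 0.00 (95% interval −0.16 to 0.16). The term takes bleo/Neo as its base. With YAMC in its place it was 0.23 ± 0.11 (95% interval −0.00 to 0.45, adjusted p = 0.205) and no lead was called of 7, beside 11.5% of all tested probe sets, so the call and most of its size rested on the bleo/Neo arrays. That group also differed in the Y-linked gene and the marker lists given above. Summed over the 14 fibroblast and smooth muscle markers, intensity per array ran from 37766 to 58305 in bleo/Neo and from 58862 to 85239 in YAMC. It was 41465 to 88479 in mp53, 32831 to 61043 in Ras and 42650 to 51007 in mp53/Ras, and the part of these markers in the Gata4 result was not tested. The other Gata4 probe set, 1418864_at, lay at background with means of 5.66 to 5.89, and its bleo/Neo minus YAMC difference was 0.20 ± 0.09 (adjusted p = 0.0681, without the filter).

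Gata6, the GATA factor of the colon, was bright on 1425464_at. The values ran from 9.69 to 10.78 in YAMC (median 10.41), from 9.97 to 11.16 in bleo/Neo (10.59), from 10.35 to 11.62 in mp53 (11.11), from 9.96 to 11.36 in Ras (10.51) and from 10.25 to 10.97 in mp53/Ras (10.75). The mp53 arrays were the highest by mean and by median, but all groups overlapped. Gata6 rose in mp53 by 0.76 ± 0.18 against YAMC (adjusted p = 0.00131) and by 0.46 ± 0.18 against bleo/Neo (adjusted p = 0.0415), and it was lower in Ras than in mp53 by 0.47 (−0.47 ± 0.18, adjusted p = 0.039). Neither of the last 2 was called with only the groups compared in the fit (adjusted p = 0.0563 and 0.0789).

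In mp53/Ras, Gata6 stood 0.39 below mp53 (−0.39 ± 0.18, adjusted p = 0.0662) and 0.37 ± 0.18 above YAMC (adjusted p = 0.0742), neither called. The value of mp53/Ras minus mp53 was −0.46 ± 0.18 (adjusted p = 0.031) without the arrays labelled mp53 10 and Ras 10, −0.56 ± 0.18 (adjusted p = 0.00801) without YAMC 2 and mp53 8 as well, and −0.68 ± 0.13 (adjusted p = 1.34e-05) under array weights, where 13287 of all 21589 tested probe sets were called. The second bright probe set, 1425463_at, had a Pearson r of 0.83 with the first over the 50 arrays and was also higher in mp53 than in YAMC, by 0.69 ± 0.26 (adjusted p = 0.0466). Against bleo/Neo it differed by 0.40 ± 0.26 (adjusted p = 0.249). The third probe set lay at background (5.58 to 5.87).

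Sox9, the SOX factor of the crypt, had the largest rise of the 7 tested leads against bleo/Neo in Ras and in mp53/Ras. On the lead, 1451538_at, YAMC values ran from 6.71 to 7.43 (median 6.98) and bleo/Neo values from 6.53 to 6.95 (6.72). The mp53 arrays ran from 7.0 to 7.93 (7.09), Ras from 6.83 to 8.17 (7.78) and mp53/Ras from 7.41 to 8.28 (7.81). Every mp53 and mp53/Ras array lay above every bleo/Neo array, and so did 9 of the 10 Ras arrays. The bleo/Neo mean of 6.76 lay at background, where a difference can understate the change in RNA.

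Against bleo/Neo, Sox9 rose by 0.40 ± 0.12 in mp53 (adjusted p = 0.00534), by 0.92 ± 0.12 in Ras (adjusted p = 4.95e-09) and by 1.03 ± 0.12 in mp53/Ras (adjusted p = 1.08e-10). Against YAMC it rose by 0.66 ± 0.12 in Ras (adjusted p = 7.93e-06) and by 0.77 ± 0.12 in mp53/Ras (adjusted p = 1.73e-07), and in mp53 it differed by 0.14 ± 0.12 (adjusted p = 0.402). The mp53/Ras minus Ras difference was 0.11 (95% interval −0.12 to 0.35). The direct contrast of Ras with mp53 was 0.52 ± 0.12 (adjusted p = 0.000463).

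A pair of arrays stood out for Sox9. The array labelled mp53 10 had 7.93, inside the Ras range, and the array labelled Ras 10 had 6.83, below every mp53 array. Without them, Ras rose by 1.01 ± 0.09 against bleo/Neo (adjusted p = 2.37e-13) and mp53 by 0.32 ± 0.09 (adjusted p = 0.00496). On a further Sox9 probe set, 1424950_at, the same arrays kept their labelled places, with 4.81 in mp53 10 and 5.28 in Ras 10.

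That probe set lay at background in every group, with a mean of 4.77 in each of YAMC, bleo/Neo and mp53, and means of 5.58 for Ras and 5.52 for mp53/Ras. All Ras and mp53/Ras arrays lay above all arrays of the 3 groups without RasV12, but the share of untested probe sets that separate so was not counted. With every group at background, neither this separation nor a size of change is read as a result. The third Sox9 probe set, 1433889_at, lay at background with means of 5.72 to 5.96 and did not follow. Without the filter, it differed from bleo/Neo by −0.01 ± 0.12 in Ras and by −0.06 ± 0.12 in mp53/Ras. Against YAMC the values were 0.23 ± 0.12 and 0.18 ± 0.12, and none of these was called (limma, lowest adjusted p = 0.114).

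**Figure D4:**
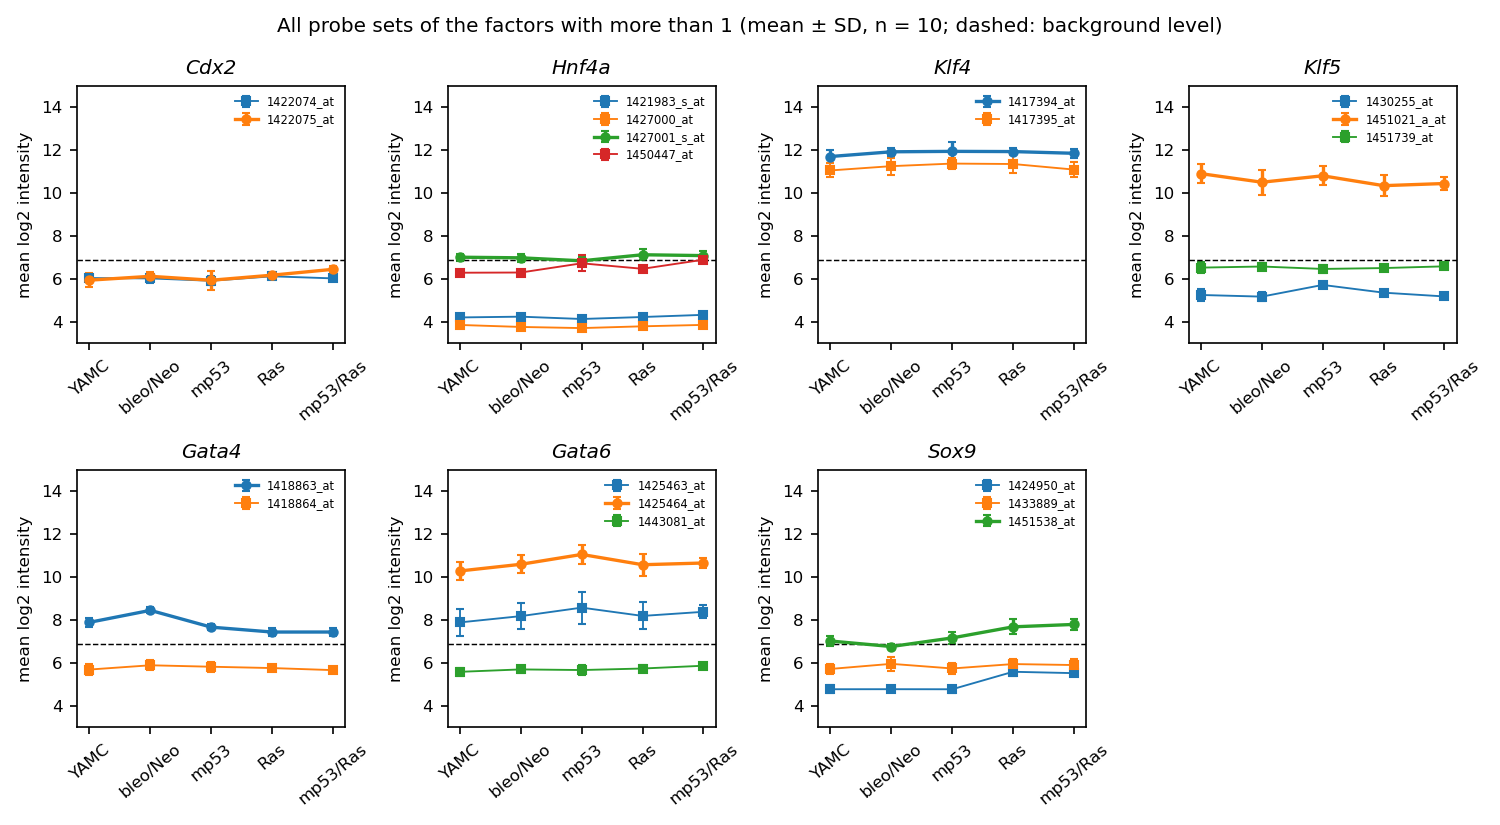
Mean log2 intensity (vertical axis, bars are the SD over 10 arrays) of every probe set of the 7 factors that have more than 1, by group, with the lead as a thick line and the background level of 6.89 dashed. The bright pairs of Klf4 and Gata6 run in parallel, whereas the Hnf4a and Gata4 probe sets do not.

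Klf4, a zinc-finger factor of goblet cells and of growth arrest, lay far above background with an even signal. The lead, 1417394_at, ran from 11.02 to 12.06 in YAMC (median 11.77), from 11.47 to 12.15 in bleo/Neo (11.95), from 10.72 to 12.29 in mp53 (12.05), from 11.66 to 12.15 in Ras (11.95) and from 11.58 to 12.20 in mp53/Ras (11.84). The groups overlapped throughout, and single low arrays lay in YAMC and mp53.

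No Klf4 comparison passed the test in the fit over all 50 arrays. Against bleo/Neo, mp53/Ras differed by −0.08 (95% interval −0.32 to 0.17), Ras by 0.01 (−0.24 to 0.26) and mp53 by 0.02 (−0.23 to 0.26). The second probe set, 1417395_at, was also bright, with means of 11.06 to 11.38, and its largest difference was 0.32 ± 0.15 in mp53 against YAMC (adjusted p = 0.128). On the lead that comparison was 0.23 ± 0.12 (adjusted p = 0.179). It became 0.36 ± 0.10 (adjusted p = 0.00398) without the arrays mp53 10, Ras 10, YAMC 2 and mp53 8, where mp53 8 was the lowest Klf4 array at 10.72. Under array weights it was 0.35 ± 0.09 (adjusted p = 0.00104). Without the same 4 arrays Klf4 was also called in Ras against YAMC (0.23 ± 0.10, adjusted p = 0.0496) and in mp53/Ras against mp53 (−0.24 ± 0.10, adjusted p = 0.037). Under array weights the last was −0.27 ± 0.07 (adjusted p = 0.000963) and the non-additive term −0.29 ± 0.12 (adjusted p = 0.0424).

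Klf5, the related factor of dividing crypt cells, was bright on 1451021_a_at. The values ran from 9.98 to 11.51 in YAMC (median 10.91), from 9.57 to 11.14 in bleo/Neo (10.65), from 10.28 to 11.76 in mp53 (10.82), from 9.52 to 11.16 in Ras (10.46) and from 9.77 to 10.97 in mp53/Ras (10.49). Spread within groups was wide (SD 0.32 to 0.57) and all groups overlapped. Klf5 fell against YAMC in Ras, by 0.56 ± 0.20 (adjusted p = 0.0208), and in mp53/Ras, by 0.46 ± 0.20 (adjusted p = 0.0437). Against bleo/Neo the differences were −0.16 ± 0.20 and −0.06 ± 0.20 (adjusted p = 0.555 and 0.81).

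The mp53/Ras fall of Klf5 was not called without the 4 arrays that lay nearer another group (−0.40 ± 0.18, adjusted p = 0.0632). Ras minus mp53 was −0.46 (adjusted p = 0.0749) over all arrays, −0.60 ± 0.20 (adjusted p = 0.0167) without mp53 10 and Ras 10 and −0.49 ± 0.20 (adjusted p = 0.0444) without the 4. The probe set 1430255_at lay at background in all groups, with means of 5.17 to 5.72, and mp53 was the highest. Without the filter, mp53 stood above bleo/Neo by 0.55 ± 0.08 (limma, adjusted p = 1.37e-07) and above YAMC by 0.47 ± 0.08 (limma, adjusted p = 9.2e-06). As every group lay at background, no change is read from this probe set. On the lead, mp53 minus bleo/Neo was 0.30 ± 0.20 (adjusted p = 0.267) and mp53 minus YAMC was −0.10 ± 0.20 (adjusted p = 0.763). The third probe set had means of 6.46 to 6.59 and was called nowhere.

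Elf3, an epithelial ETS factor, was measured by a single probe set at the border of background. The medians were 6.85 in YAMC (6.61 to 7.13), 6.72 in bleo/Neo (6.46 to 7.11), 6.83 in mp53 (6.71 to 6.98), 6.93 in Ras (6.59 to 7.10) and 6.92 in mp53/Ras (6.57 to 7.49). All groups overlapped, and only the mp53/Ras mean, 6.96, was above background. Elf3 was higher in mp53/Ras than in bleo/Neo by 0.24 ± 0.07 (adjusted p = 0.0054) and was called in no other comparison, with 0.12 ± 0.07 against YAMC (adjusted p = 0.179).

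Related genes were read from lists of families and of gut factors. Of 25 other intestinal and endoderm transcription factors on the array, 15 were at background in all groups and 11 were tested. In mp53/Ras against bleo/Neo, where 54.2% of all tested genes were called, 3 of the 11 rose and 5 fell, and their median difference was −0.20, beside 0.01 over all tested genes. Foxa2, a forkhead partner of HNF4A in endoderm, had a mean of 8.0 in YAMC and 8.21 in mp53 cells, 8.92 in bleo/Neo cells, 9.73 in Ras cells and 10.03 in mp53/Ras cells. It rose in mp53/Ras by 1.11 ± 0.18 against bleo/Neo (adjusted p = 1.01e-06) and by 2.03 ± 0.18 against YAMC (adjusted p = 2.15e-13). Id2, an inhibitor of basic helix-loop-helix factors, in mp53/Ras against bleo/Neo fell by 2.35 ± 0.25 (adjusted p = 3.13e-11). Atoh1, the secretory-lineage factor, and Hnf4g, the paralogue of Hnf4a, lay at background in all groups (5.08 to 5.39 and 5.14 to 5.42).

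Relatives of the members were counted in mp53/Ras against bleo/Neo, where 54.2% of all tested genes were called. No count here is read as a result about a family. Of 4 tested GATA relatives and partners, 2 rose and 2 fell in mp53/Ras against bleo/Neo. Gata3 had the opposite order to Gata4 in the controls, with a mean of 6.90 in bleo/Neo, just above background, and 8.23 in YAMC. Its bleo/Neo minus YAMC difference was −1.34 ± 0.18 (adjusted p = 7.39e-08). Of 12 other tested KLF genes, 3 rose and 2 fell in mp53/Ras against bleo/Neo, with Klf2 at 1.71 ± 0.12 (adjusted p = 8.55e-17) and Klf11 at −0.95 ± 0.08 (adjusted p = 4.52e-14). Of 9 other tested SOX genes, 2 rose and 1 fell, and the largest was Sox12 at 0.60 ± 0.10 (adjusted p = 1.22e-06). Of 4 other tested epithelial ETS genes, 1 fell, Elf1 at −0.36 ± 0.15 (adjusted p = 0.0364).

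Genes of the differentiated gut, which these factors are known to regulate, were mostly not measurable. Of 13 that were tested, 2 rose and 5 fell in mp53/Ras against bleo/Neo, with a median difference of 0.01, equal to that over all tested genes. Because 26 of the 35 on the array lay at background in all groups, some of the 13 did too. The mucus-layer gene Fcgbp fell by 0.61 ± 0.11 (adjusted p = 8.18e-06), the goblet cell gene Tff3 by 0.40 ± 0.08 (adjusted p = 3.82e-05) and the guanylin gene Guca2a by 0.40 ± 0.05 (adjusted p = 6.81e-09). The controls differed as well. In bleo/Neo against YAMC 5 of the 13 rose, Fcgbp by 0.36, and 0 fell, beside 36.5% of all tested genes called. In mp53/Ras against YAMC 7 rose and 2 fell (Guca2a at −0.41 and Tff3 at −0.26), beside 57.4% of all tested genes called. The median there was 0.14 beside 0.02. Of 7 tested crypt and stem cell markers, which include no Sox9, 5 rose and 1 fell in mp53/Ras against bleo/Neo, beside the 54.2% of all tested genes called. The largest was Lrig1, a feedback inhibitor of ERBB receptors, at 1.49 ± 0.13 (adjusted p = 1.26e-13), while Lgr5 lay at background (5.67 to 5.94).

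The genes with the most similar course over the 50 arrays are given as a description, since the points share populations, arrays and normalisation. For Sox9 they were Il18rap (Pearson r = 0.92), Fgf7 (0.91) and Cadm1 (0.90). For Gata4 they were Kcnk1 (0.91), Mtmr7 (0.90) and Dusp15 (0.89), and for Klf5 Oxct1 (0.92), Wdfy1 (0.89) and Exoc5 (0.89). For Gata6 the first was Ext1 (0.76), for Klf4 Lamtor2 (0.80), for Elf3 Slc34a2 (0.81) and for Hnf4a Clcn1 (0.85). The genes named for Gata4 had means of 6.77 (Kcnk1), 6.08 (Mtmr7) and 6.82 (Dusp15) over the 50 arrays, all under the background level of 6.89. Clcn1 also lay under it, at 6.75. The Mtmr7 mean lay under the table median of 6.44 too, so that gene was tested through its brighter arrays. Among the members themselves, Gata4 and Sox9 ran against each other (r = −0.68), Hnf4a and Elf3 ran together (0.63), and Klf4 and Klf5 had r = −0.44. None of these pairs was chosen by a test.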

How the data were processed

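The authors deposited 1 table of linear intensity values per probe set and array (Affymetrix mouse genome arrays). The submitters' processing notes name RMA, with no version and no account of how the log scale was undone. Array medians ran from 86.4 to 86.7. Of 45101 rows, 64 were blank, 34945 had 1 symbol, 932 had several and 9160 had none, and the last 2 kinds were not used. Gene symbols came from the platform annotation, and 34741 of the 34945 were matched by gene number to the RefSeq table of GRCm38.p6.

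Values were taken to log2. Probe sets above the table median on at least 10 arrays were tested with limma 3.58.1 in R 4.3.3. The fit had 1 coefficient per group, an intensity trend and Benjamini-Hochberg adjustment per comparison. It was also run on simulated arrays with independent noise and equal quality, which cannot give the error rate for the real arrays. The number of arrays limits the precision. Members and gene lists were chosen with earlier results of these data known. The comparison of Ras with mp53, and YAMC as the base of the non-additive term, were added after the data were seen. Genes named beside the members are the up to 3 called genes of each list with the largest difference in a comparison, the 3 genes most like each tested member by Pearson r over 50 arrays, and cell type markers, Atoh1, Hnf4g and Lgr5 chosen after their values were seen. Alternatives were other filters, an offset of 32, no trend, a replicate block, arrays left out, array weights, median centring, gene-level testing, only the groups compared, and the table median as background.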

Additional observations from a re-analysis of the deposited data

Results flagged for a closer look

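In 45 sets of 10 arrays (9 lead probe sets by 5 groups), 8 held an array whose gap to its nearest neighbour was, as a share of the whole range, above the 95% critical value of Dixon's test. Chance flags about 1 in 20 groups.

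For Klf4 the lowest arrays stood apart in YAMC (YAMC 5, 11.02), in bleo/Neo (bleo/Neo 8, 11.47) and in mp53 (mp53 8, 10.72). For Gata4 they did so in YAMC (YAMC 4, 7.32), in bleo/Neo (bleo/Neo 4, 8.13) and in mp53/Ras (mp53/Ras 8, 6.95). The array numbered 4 was also the lowest for Gata4 in mp53 (7.48) and in Ras (7.07), and it was the highest in mp53/Ras (7.65). For Sox9 the array labelled mp53 10 stood above the other mp53 arrays (7.93). For Cdx2, at background, the lowest bleo/Neo array stood apart (bleo/Neo 1, 5.66).

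The Gata4 difference between populations with and without p53175H differed by RasV12 where bleo/Neo was the base: the non-additive term was 0.78 ± 0.11 (limma, adjusted p = 3.68e-07). With YAMC as the base, added after the data were seen, it was 0.23 ± 0.11 (limma, adjusted p = 0.205) and not called.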

How the results depend on the processing

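Over 77 member differences, 11 alternatives and, for the non-additive term, YAMC as its base, there were 810 values, of which 771 kept their direction and their side of the threshold. Of the 25 called differences, 18 stayed called under all alternatives run and none changed sign. The 9 values that changed sign were all uncalled. Gata6 in mp53/Ras against bleo/Neo was −0.107 with array weights, and Gata6 in Ras against bleo/Neo was 0.0413 without mp53 10 and Ras 10 and also 0.0413 without those and YAMC 2 and mp53 8. With array weights, mp53/Ras minus Ras was 0.017 for Hnf4a, −0.027 for Gata4 and −0.071 for Gata6. Klf4 in Ras against mp53 was 0.0185 without mp53 10 and Ras 10. With YAMC as its base the non-additive term was 0.20 for Klf5 and 0.083 for Elf3, and 0 leads were called (limma, 1 at an unadjusted p under 0.05, Gata6, adjusted p = 0.0659).

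With the stricter filter, which left 3 members tested, the number called was 1 in mp53 against bleo/Neo and against YAMC, in Ras against YAMC and against mp53 and in mp53/Ras against YAMC, and 0 in mp53/Ras and in Ras against bleo/Neo, in bleo/Neo against YAMC, in mp53/Ras against mp53 and for the non-additive term. In bleo/Neo against YAMC, 2 were called without mp53 10 and Ras 10 and 2 with only the groups compared, when Sox9 joined Gata4 (−0.26, adjusted p = 0.0186 and 0.031). With only the groups compared, 1 was called in mp53 against YAMC. Array weights called 7 in mp53/Ras against mp53, beside 13287 of all 21589 tested probe sets, and 4 for the non-additive term, beside 8399 of them. Without a filter, 1 was called in mp53/Ras against Ras and 2 for the non-additive term, since Cdx1 and Cdx2 entered. With the table median as background reference, 7 genes lay above it in all groups. The cause of the other changes was not tested.

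Calls that were lost were those of Gata6 in mp53 against bleo/Neo (adjusted p = 0.0563) and in Ras against mp53 (0.0789) with only the groups compared, and of Gata4 in mp53/Ras (−0.19, adjusted p = 0.0713) and in Ras (−0.19, adjusted p = 0.0827) against mp53 without the 4 arrays, besides those of Gata4 in mp53 against YAMC and in the non-additive term and of Klf5 in mp53/Ras against YAMC given above.

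Replicate numbers are shared by the groups but are not stated to mark a day or culture. Of 100 same-numbered pairs of arrays, 69 had deviations correlated above 0.1 (median 0.203, beside 257 of 900 and −0.021 for other numbers), and an array's best match in another group had its own number in 77 of 200 cases. Same-numbered arrays thus deviated together more often than others, but not in every pair, so the block was kept as an alternative, and whether a number marks a shared batch was not tested. With the replicate block, Gata6 was called in mp53/Ras against YAMC (0.37, adjusted p = 0.0119) and against mp53 (−0.39, adjusted p = 0.00918), and no other call of a lead probe set changed.

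Signals near the background of 6.89 limit what can be read for Cdx1, Cdx2, Hnf4a, Elf3 and Sox9, and the depth of an array cannot be stated in counts.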
